A study of Mus musculus with 8 samples.

Results

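The 9 genes described here encode the insulin-like growth factors (Igf1 and Igf2), the receptor that clears IGF2 from the cell surface (Igf2r) and 6 of the secreted proteins that bind IGFs (Igfbp2 to Igfbp7). They were taken by name from the 12528 genes in the deposited table, which lists all 9 of them. RNA was sequenced from mouse embryonic fibroblasts (MEFs) kept at low density for 24 h on polyacrylamide hydrogels that were either stiff (a Young's modulus of about 55 kPa per the study's methods) or soft (about 0.2 kPa). The cells were wild-type (WT) or lacked caveolin-1 (Cav1KO), the main structural protein of caveolae, and each of the 4 combinations of genotype and gel had 2 libraries (named, for example, WT stiff and Cav1KO soft). Both genotypes were immortalized MEFs derived from littermates. How many lines stand for each genotype is not given in the sources used here, so the genotype cannot be told apart from the line that carries it. The study asked whether CAV1 is needed for the response of cells to substrate stiffness, and the IGF genes are read here against that design.

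IGF1 and IGF2 are growth and survival signals that act through the tyrosine kinase receptor IGF1R. Fibroblasts secrete both the ligands and the binding proteins, which hold IGFs in the medium, carry them to or keep them from the receptor, and release them when a protease cuts the binding protein. IGF2R, which is also the cation-independent mannose 6-phosphate receptor, takes IGF2 up for destruction in lysosomes and carries no growth signal of its own. Igf2 and Igf2r are imprinted, Igf2 being expressed from the paternal and Igf2r, in most mouse tissues, from the maternal copy.

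Libraries held between 17089836 and 19944952 reads assigned to genes, so that 3 reads, the most that a count of 0 allows, corresponded to between 0.151 and 0.181 CPM (read counts scaled by the TMM-normalised library size) depending on the library. Cav1 lay between 949.8 and 1157 CPM in the 4 WT libraries and at or below 0.411 CPM in the 4 Cav1KO libraries, which matches the labels. Of 12 fibroblast markers, 10 were listed (Thy1 and Lum were not), with sums of 9256 to 9429 CPM on stiff and 12049 to 12198.5 CPM on soft gels for WT, and of 4559 to 5704 CPM on stiff and 14016 to 14060.5 CPM on soft gels for Cav1KO. Single markers within these sums went opposite ways between genotypes. Postn lay at 0.456 to 2.78 CPM in WT and 59.2 to 490 CPM in Cav1KO, and S100a4 at 393 to 864 CPM in WT and 80.2 to 231 CPM in Cav1KO. None of 5 epithelial, 5 endothelial or 5 skeletal muscle markers was listed, and of 5 macrophage markers only Cd68 was, at 0.552 to 4.55 CPM. Differences are given on the log2(CPM + 1) scale from a limma fit across 12494 genes and all 8 libraries, with p-values adjusted by the Benjamini-Hochberg method and a threshold of 0.05. That scale understates the change of genes with few reads, so fold differences between group means of CPM are given beside it. No source says that the 2 libraries of a group came from separate cultures, so p-values measure only the spread between these libraries.

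In outline, most of the 9 genes were lower on stiff gels than on soft ones in both genotypes, and the most abundant binding-protein transcripts were not the same in WT and Cav1KO. Of the ligands, Igf2 was above Igf1 per kb of exon in Cav1KO. In WT stiff Igf1 (0.108 ± 0.006 CPM per kb, SD, n = 2) was above Igf2 (0.046 ± 0.022). In WT soft Igf2 (0.205 ± 0.024) and Igf1 (0.177 ± 0.035) were level. In the WT, Igfbp4 and Igfbp3 made up most of the binding-protein transcripts and ligand transcripts had few reads, 18 to 33 per library for Igf1 and 3 to 21 for Igf2. In Cav1KO cells Igfbp3 fell to a few reads per library and Igfbp4 to 6.002 to 11.6 CPM, while Igf2 stood at 101 to 488 CPM and Igfbp2 was the most abundant or joint most abundant binding-protein transcript.

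**Figure D1:**
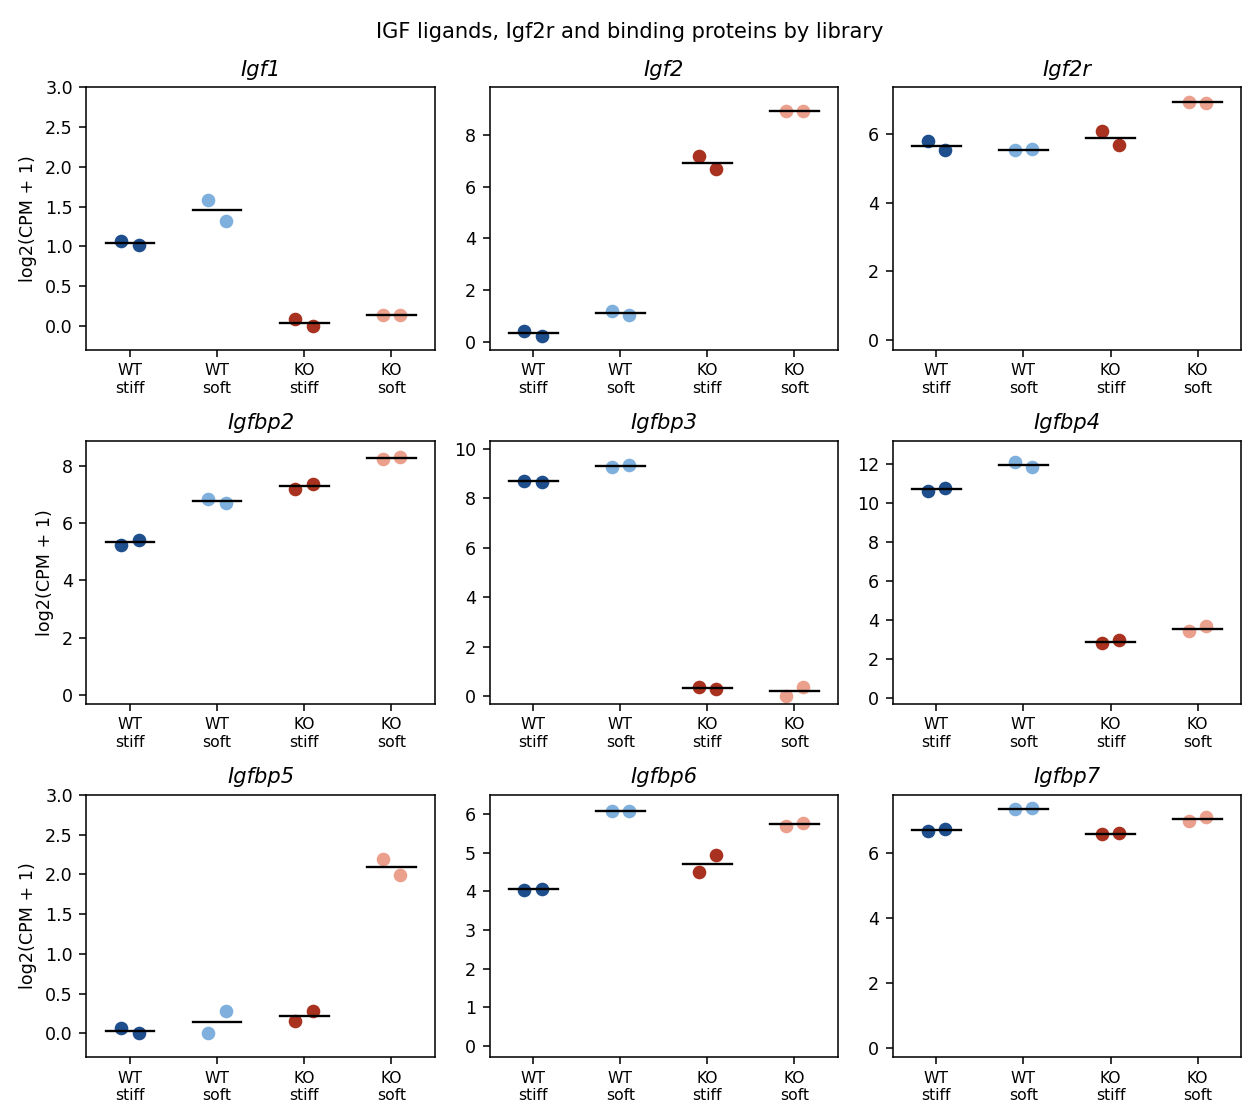
Level of each of the 9 genes in each library on the log2(CPM + 1) scale; the x axis gives the group (KO stands for Cav1KO), points are single libraries and bars are the mean of 2. Igfbp3 and Igfbp4 sat high in WT only, Igf2 sat high in Cav1KO only, and Igfbp2, Igfbp6 and Igfbp7 were present in all 4 groups with every soft library above every stiff library of the same genotype.

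The 250 bases before the RefSeq transcription start (build GRCm38.p6) are printed for the genes whose levels differed most between genotypes (Igfbp3, Igfbp4 and Igf2), for the binding protein that led in Cav1KO cells (Igfbp2) and for the one with the largest stiffness difference among binding proteins in WT (Igfbp6). Capitals mark matches on either strand to 4 short motifs. They are the GC box bound by SP1-type factors (letters GGGCGG), the TATA box that positions the start of many genes (letters TATAAA), the core bound by TEAD factors, which are the DNA-binding partners of YAP (letters GGAATG), and the CCAAT box. Over 32851 RefSeq windows of this length, 32.7% held the GC box, 12.4% the TATA box, 12.6% the TEAD core and 33.9% the CCAAT box.
Igfbp3, chr11:7213924-7214173, minus strand: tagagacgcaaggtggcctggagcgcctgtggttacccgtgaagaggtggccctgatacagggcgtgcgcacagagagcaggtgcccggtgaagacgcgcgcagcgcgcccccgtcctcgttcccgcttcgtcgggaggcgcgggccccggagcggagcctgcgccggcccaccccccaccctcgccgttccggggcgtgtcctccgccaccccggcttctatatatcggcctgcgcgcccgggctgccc
Igfbp4, chr11:99040994-99041243, plus strand: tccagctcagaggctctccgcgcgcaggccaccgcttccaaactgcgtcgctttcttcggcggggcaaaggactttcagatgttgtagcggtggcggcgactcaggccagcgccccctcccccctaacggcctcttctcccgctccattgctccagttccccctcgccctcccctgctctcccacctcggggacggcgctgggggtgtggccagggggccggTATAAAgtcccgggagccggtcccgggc
Igf2, chr7:142657497-142657746, minus strand: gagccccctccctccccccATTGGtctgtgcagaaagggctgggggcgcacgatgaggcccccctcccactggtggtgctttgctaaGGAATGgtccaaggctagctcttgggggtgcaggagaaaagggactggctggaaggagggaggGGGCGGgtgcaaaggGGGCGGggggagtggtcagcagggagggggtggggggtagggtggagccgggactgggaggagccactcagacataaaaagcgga
Igfbp2, chr1:72824230-72824479, plus strand: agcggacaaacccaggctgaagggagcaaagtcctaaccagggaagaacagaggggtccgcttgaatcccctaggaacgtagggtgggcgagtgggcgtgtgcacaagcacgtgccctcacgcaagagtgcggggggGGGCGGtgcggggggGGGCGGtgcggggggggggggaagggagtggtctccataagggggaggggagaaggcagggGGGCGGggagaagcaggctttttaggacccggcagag
Igfbp6, chr15:102143936-102144185, plus strand: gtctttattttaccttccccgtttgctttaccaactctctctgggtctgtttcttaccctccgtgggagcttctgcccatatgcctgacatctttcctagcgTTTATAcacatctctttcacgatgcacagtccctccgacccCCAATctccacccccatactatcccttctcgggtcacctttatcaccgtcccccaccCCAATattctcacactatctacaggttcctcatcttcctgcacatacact
The Igfbp3 window held none of the 4 motifs and 32 CpG dinucleotides, more than 95.4% of all windows. The Igfbp4 window had 22 CpG and 1 TATA box, the Igfbp2 window 14 CpG and 3 GC boxes, and the Igfbp6 window 7 CpG, 1 TATA box and 2 CCAAT boxes. RefSeq gives Igfbp2 another window, chr1:72825137-72825386, with 11 CpG and none of the 4 motifs, and which Igfbp2 start was used was not measured. The Igf2 window, with 2 GC boxes, 1 TEAD core and 1 CCAAT box, is 1 of 4 that RefSeq gives for this gene, and which start these cells used was not measured. The median window held 6 CpG. A match is only a description of these letters, and binding was not measured.

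Igf1 had few reads in WT cells and fewer in Cav1KO. Igf1 (ENSMUSG00000020053, chr10:87858265-87937042, plus strand, GRCm38) stood at 1.10 and 1.03 CPM on stiff and 1.99 and 1.505 CPM on soft gels for WT, and at 0.0588 and 0 CPM on stiff and 0.105 and 0.103 CPM on soft gels for Cav1KO. These values rest on 18 to 33 reads per WT library and on at most 2 reads per Cav1KO library. The genotypes did not overlap. Igf1 was lower in Cav1KO by -1.005 ± 0.154 (SE, log2 scale) on stiff gels (limma adjusted p = 0.000761) and by -1.31 ± 0.15 on soft gels (limma adjusted p = 0.000153). By pooled reads the WT level was 37.6 times that of Cav1KO on stiff gels (95% counting interval 6.38 to 1523, from 40 reads against 1) and 16.7 times on soft gels (6.21 to 63.4). Between stiff and soft WT cells the difference of -0.41 ± 0.15 missed the threshold (limma adjusted p = 0.0560). This difference was -0.28 without WT soft replicate 1 and -0.54 without WT soft replicate 2. It passed in limma without a mean-variance trend (adjusted p = 0.0179) and with a pseudocount of 5 (adjusted p = 0.0494). It did not pass with edgeR (adjusted p = 0.163) or DESeq2 (adjusted p = 0.509).

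Igf2 had few reads in WT cells and many in Cav1KO, and was lower on stiff gels in both. Igf2 (ENSMUSG00000048583, chr7:142650766-142666816, minus strand) stood at 0.352 and 0.171 CPM on stiff and 1.27 and 1.07 CPM on soft gels for WT, and at 144 and 101 CPM on stiff and 486 and 488 CPM on soft gels for Cav1KO. In reads, 3 to 21 per WT library faced 1834 to 9494 per Cav1KO library. The ratio of group means was 467-fold on stiff gels (6.59 ± 0.17 on the log2(CPM + 1) scale, limma adjusted p = 3.00e-08) and 416-fold on soft gels (7.81 ± 0.17, limma adjusted p = 1.15e-08), with counting intervals on the pooled reads of 247 to 948 and 308 to 583. Within Cav1KO cells, Igf2 was 3.99-fold lower on stiff than on soft gels (-2.01 ± 0.17, limma adjusted p = 3.43e-05). Within WT the ratio was 4.48-fold in the same direction (-0.79 ± 0.17, limma adjusted p = 0.00490), from 10 reads in the WT stiff group against 41 in WT soft, and with a pseudocount of 5 that call was lost (adjusted p = 0.209). Per kb of exon, Igf2 reached 85.2 ± 0.221 CPM per kb (SD, n = 2) in Cav1KO soft, against at most 0.177 CPM per kb for Igf1 in any group mean. Igf2 shares 61.5% of its 60-base windows, the read length, with overlapping annotated transcripts of Gm49394 on the same strand and Igf2os on the opposite strand, neither of which is listed, so its reads are uncertain as to which of these they came from. Counting is not stated to have used strand. Igf1 and Igf2r also overlap antisense genes (Igf1os and Airn), but 0% of their 60-base exon windows are shared with annotated transcripts.

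Igf2r levels overlapped between the gels in WT cells and were lower on the stiff gel in Cav1KO. Igf2r (ENSMUSG00000023830, chr17:12682406-12769664, minus strand) stood at 54.7 and 45.3 CPM on stiff and 45.6 and 46.2 CPM on soft gels for WT, and at 68.0 and 50.04 CPM on stiff and 123 and 119.9 CPM on soft gels for Cav1KO. Only the Cav1KO soft libraries stood apart from the rest. In Cav1KO cells Igf2r was 2.06-fold lower on stiff gels (-1.04 ± 0.14, limma adjusted p = 0.000384), whereas the WT libraries overlapped (0.12 ± 0.14, limma adjusted p = 0.529). On soft gels it was 2.65-fold higher in Cav1KO than in WT (1.38 ± 0.14, limma adjusted p = 7.02e-05), and on stiff gels the genotypes overlapped (0.22 ± 0.14, limma adjusted p = 0.218). Over the omissions of single libraries that stiff difference lay between 0.006 and 0.44, the latter without Cav1KO stiff replicate 2.

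Igfbp3 and Igfbp4 were the abundant binding-protein transcripts of WT cells and were far lower in Cav1KO. IGFBP3 is the main carrier of IGFs in serum, and IGFBP4 is an inhibitor of IGF action that is inactivated by the protease PAPP-A. Igfbp3 (ENSMUSG00000020427, chr11:7206086-7213923, minus strand) stood at 415 and 403 CPM on stiff and 607 and 654 CPM on soft gels for WT, and at 0.294 and 0.219 CPM on stiff and 0 and 0.309 CPM on soft gels for Cav1KO. The Cav1KO values come from 0 to 6 reads per library. The WT level was 1604 times that of Cav1KO by pooled reads on stiff gels (counting interval 845 to 3508) and 4063 times on soft gels (1867 to 11073), with limma differences of -8.35 ± 0.13 (limma adjusted p = 2.37e-09) and -9.11 ± 0.13 (limma adjusted p = 2.51e-09). Igfbp4 (ENSMUSG00000017493, chr11:99041244-99054392, plus strand) stood at 1567 and 1705 CPM on stiff and 4284 and 3566 CPM on soft gels for WT, and at 6.002 and 6.69 CPM on stiff and 9.83 and 11.6 CPM on soft gels for Cav1KO. It was 258-fold lower in Cav1KO on stiff gels (-7.80 ± 0.11, limma adjusted p = 2.28e-09) and 367-fold lower on soft gels (-8.39 ± 0.11, limma adjusted p = 2.51e-09). Unlike Igfbp3, its Cav1KO level rests on 102 to 225 reads per library, so it was low but measurable. The windows upstream of Igfbp3 and Igfbp4, printed above, are rich in CpG, with 32 and 22. This was not particular to them: the windows of Igf2r (27 CpG) and Igfbp7 (26 CpG), which are not printed, held more than that of Igfbp4.

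On the soft gel both genes were higher in WT. Igfbp3 was 1.54-fold lower on stiff than on soft gels (-0.62 ± 0.13, limma adjusted p = 0.00531), a call that was lost with a pseudocount of 0.1 (adjusted p = 0.358). Igfbp4 was 2.40-fold lower on stiff gels in WT (-1.26 ± 0.11, limma adjusted p = 8.80e-05) and, at its much lower level, 1.69-fold lower on stiff gels in Cav1KO (-0.67 ± 0.11, limma adjusted p = 0.00114). Igfbp3 in Cav1KO was too low for the stiffness comparison to be read (limma adjusted p = 0.421).

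Igfbp2 was higher in Cav1KO on both gels and lower on stiff gels in both genotypes. IGFBP2 binds IGF2 and IGF1 and is abundant in fetal tissue. Igfbp2 (ENSMUSG00000039323, chr1:72824503-72852474, plus strand) stood at 37.0 and 41.7 CPM on stiff and 114 and 103 CPM on soft gels for WT, and at 146 and 165 CPM on stiff and 299 and 311 CPM on soft gels for Cav1KO. No group overlapped another. It was 3.95-fold higher in Cav1KO on stiff gels (1.95 ± 0.09, limma adjusted p = 9.24e-07) and 2.81-fold higher on soft gels (1.49 ± 0.09, limma adjusted p = 4.34e-06). Stiff gels gave 2.76-fold lower levels in WT (-1.44 ± 0.09, limma adjusted p = 4.08e-05) and 1.96-fold lower levels in Cav1KO (-0.97 ± 0.09, limma adjusted p = 7.09e-05).

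Igfbp5, whose gene lies tail to tail with Igfbp2 on chromosome 1 with 5457 bp between their ends, was near the limit of detection except in Cav1KO cells on soft gels. IGFBP5 binds extracellular matrix as well as IGFs. Igfbp5 (ENSMUSG00000026185, chr1:72857932-72874884, minus strand) stood at 0.0502 and 0 CPM on stiff and 0 and 0.215 CPM on soft gels for WT, and at 0.118 and 0.219 CPM on stiff and 3.56 and 2.98 CPM on soft gels for Cav1KO. These are 0 to 4 reads in each of the first 6 libraries and 68 and 58 reads in the Cav1KO soft libraries. In Cav1KO it was 19.2 times lower on stiff gels by pooled reads (counting interval 8.57 to 53.3, -1.87 ± 0.17, limma adjusted p = 4.63e-05), and on soft gels the Cav1KO level was 28.7 times that of WT (counting interval 10.9 to 107, 1.95 ± 0.17, limma adjusted p = 2.32e-05). In WT the stiffness difference could not be read at this depth (limma adjusted p = 0.630).

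On the log2(CPM + 1) scale Igfbp6 showed the largest stiffness difference of the 9 genes in WT, while by ratio of means Igf2, with few reads there, was at 4.48-fold against 4.30-fold for Igfbp6. IGFBP6 binds IGF2 in preference to IGF1. Igfbp6 (ENSMUSG00000023046, chr15:102144362-102149511, plus strand) stood at 15.4 and 15.7 CPM on stiff and 66.6 and 67.4 CPM on soft gels for WT, and at 21.7 and 29.5 CPM on stiff and 51.3 and 53.8 CPM on soft gels for Cav1KO. It was 4.30-fold lower on stiff gels in WT (-2.04 ± 0.13, limma adjusted p = 3.91e-05) and 2.05-fold lower in Cav1KO (-1.03 ± 0.13, limma adjusted p = 0.000292). The genotype difference was 1.64-fold higher in Cav1KO on stiff gels (0.67 ± 0.13, limma adjusted p = 0.00311). On soft gels both Cav1KO libraries lay below both WT libraries, but the difference of -0.34 ± 0.13 missed the threshold (limma adjusted p = 0.0546). It passed under edgeR and with a pseudocount of 5, and also without Cav1KO stiff replicate 1 (adjusted p = 0.00675) or replicate 2 (adjusted p = 0.00725).

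Igfbp7 varied least among the 6 binding proteins. IGFBP7 is a matrix-associated protein with low affinity for IGFs. Igfbp7 (ENSMUSG00000036256, chr5:77349240-77408041, minus strand) stood at 101 and 105 CPM on stiff and 164 and 167 CPM on soft gels for WT, and at 95.2 and 97.1 CPM on stiff and 128 and 138 CPM on soft gels for Cav1KO. It was 1.60-fold lower on stiff gels in WT (-0.68 ± 0.07, limma adjusted p = 0.000162) and 1.38-fold lower in Cav1KO (-0.46 ± 0.07, limma adjusted p = 0.000681). On soft gels it was 1.25-fold lower in Cav1KO (-0.32 ± 0.07, limma adjusted p = 0.00477), which was lost without Cav1KO soft replicate 1 (-0.26, adjusted p = 0.0597). On stiff gels the difference of -0.10 ± 0.07 did not pass (limma adjusted p = 0.249).

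Counted over the 9 genes, 6 were lower and 0 higher on stiff gels in WT, where 26.3% of all genes tested were called lower and 22.1% higher. The median difference was -0.68 for the 9 genes, -0.79 for the 7 that had more than 3 reads in a library of every group, and -0.02 for all genes tested. In Cav1KO 7 were lower and 0 higher, against 28.2% lower and 27.9% higher among all genes, with medians of -0.97 for the 9 genes, -0.97 for the 7 with more than 3 reads in every group and -0.02 for all. Igfbp5 entered the test only through Cav1KO soft libraries, so its call in Cav1KO is not independent of the filter. Among the 7 genes with more than 3 reads in every group, which leave out Igf1 and Igfbp5, 6 were lower in Cav1KO and 0 higher. DESeq2 and edgeR also called 0 of the 9 genes higher on stiff gels in either genotype, and no gene of the 9 reached even an unadjusted p under 0.05 in that direction in the limma fit. Igf2, Igfbp2, Igfbp4, Igfbp6 and Igfbp7 were lower in both genotypes, Igfbp3 in WT, and Igf2r and Igfbp5 in Cav1KO. The summed fibroblast markers were also lower on stiff gels in both genotypes, by the ranges given above, and their part in these differences was not tested. Col1a1 went against the sum in WT, at 2612 and 2515 CPM on stiff and 2035 and 2273 CPM on soft gels. The other listed markers were lower in both WT stiff libraries than in both WT soft libraries. In bulk RNA, fewer cells of one kind and less RNA per cell cannot be told apart.

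**Figure D2:**
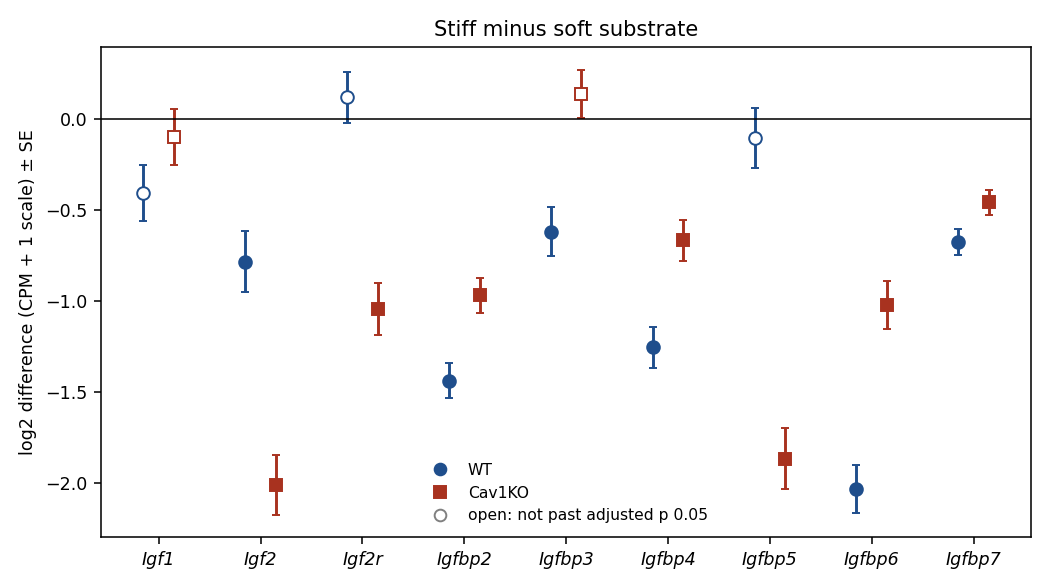
Difference between stiff and soft gels for each of the 9 genes on the log2(CPM + 1) scale, in WT and in Cav1KO; error bars are SE from the limma fit and open symbols did not pass the threshold. Every filled symbol lies below 0, Igfbp6 is lowest in WT at -2.04 and Igf2 is lowest in Cav1KO at -2.01.

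Whether the stiffness differences themselves differed between genotypes was tested as WT minus Cav1KO. The difference was past the threshold and positive, that is, the stiffness difference was more negative in Cav1KO, for Igf2 (1.23 ± 0.23, limma adjusted p = 0.0238), Igf2r (1.16 ± 0.20, limma adjusted p = 0.0177) and Igfbp5 (1.76 ± 0.23, limma adjusted p = 0.00700). It was negative, with the stiffness difference more negative in WT, for Igfbp3 (-0.76 ± 0.19, limma adjusted p = 0.0431) and Igfbp6 (-1.01 ± 0.19, limma adjusted p = 0.0213). Among all genes 4.47% were called positive and 6% negative. Igfbp2 (-0.47) and Igfbp4 (-0.59) missed the threshold, with limma adjusted p of 0.0564 and 0.0501, as did Igf1 and Igfbp7. The Igf2 difference rests on the pseudocount: the ratio of means was 4.48-fold in WT and 3.99-fold in Cav1KO, and edgeR on the reads gave -0.10 (adjusted p = 0.912). With edgeR, Igf2r (adjusted p = 0.0209) and Igfbp6 (adjusted p = 0.0219) passed, and Igfbp3 (adjusted p = 0.315) and Igfbp5 (adjusted p = 0.528) did not. These calls were also sensitive to single libraries. For Igf2r the adjusted p was 0.0740 without WT stiff replicate 1, 0.0725 and 0.0536 without WT soft replicates 1 and 2, and 0.0958 and 0.0777 without Cav1KO soft replicates 1 and 2. For Igfbp6, leaving out the same 5 libraries in that order gave 0.0844, 0.0798, 0.0599, 0.110 and 0.0862. Igf2 was not called without any 1 of those 5 libraries either (adjusted p of 0.0640 to 0.118), and Igfbp3 was called only in the omissions of Cav1KO stiff replicate 1 and Cav1KO soft replicate 2 (otherwise 0.0721 to 0.142). Without Cav1KO stiff replicate 1, Igfbp2 (adjusted p = 0.0217) and Igfbp4 (adjusted p = 0.0269) were called as well. The differences themselves moved little, between 0.94 and 1.38 for Igf2r and between -1.23 and -0.80 for Igfbp6 over all 8 omissions.

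Between genotypes, 3 of the 9 genes were higher and 3 lower in Cav1KO on stiff gels, where 25% of all genes tested were higher and 26.6% lower. On soft gels 4 were higher and 4 lower, against 24.1% and 29.9% of all genes. Igf1 and Igfbp3 entered the test only through WT libraries and Igfbp5 only through Cav1KO soft libraries. For the 7 genes left without Igf1 and Igfbp5 the counts were 3 higher and 2 lower on stiff gels and 3 and 3 on soft gels. These 7 still include Igfbp3, which is counted as lower on both gels. The median over the 9 genes was 0.19 on stiff and -0.32 on soft gels, against -0.03 for all genes on both. The counts were therefore split between directions, and it was the sizes that set Igf2, Igfbp3 and Igfbp4 apart from the other members. Of 4 adipocyte markers Fabp4 and Pparg were listed and Adipoq and Plin1 were not, with sums of 6.95 to 8.82 CPM over the WT libraries and 102 to 159 CPM over the Cav1KO libraries. The listed pair went opposite ways: Fabp4 lay at 0.201 to 2.48 CPM in WT and 102 to 158 CPM in Cav1KO, and Pparg at 6.34 to 7.98 CPM in WT and 0.164 to 0.471 CPM in Cav1KO. Of 6 cartilage and bone markers 3 were listed, at 212 to 265 CPM in WT and 84.8 to 144 CPM in Cav1KO. Their part in the genotype differences was not tested.

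**Figure D3:**
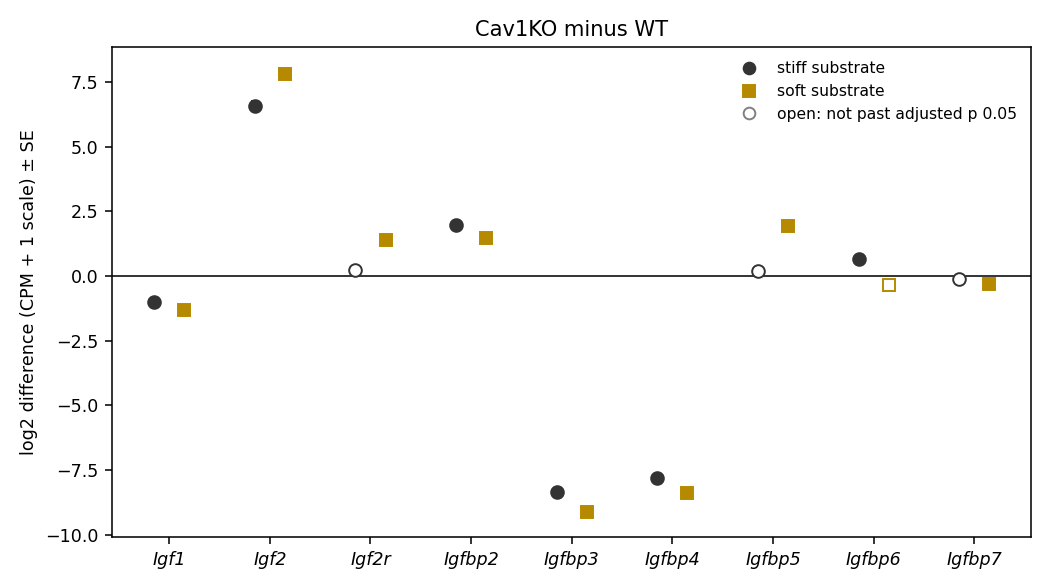
Difference between Cav1KO and WT for each of the 9 genes on the log2(CPM + 1) scale, on stiff and on soft gels; error bars are SE from the limma fit, smaller than the symbols, and open symbols did not pass the threshold. Igf2 lies at 6.59 and 7.81, Igfbp3 at -8.35 and -9.11 and Igfbp4 at -7.80 and -8.39, and the other members lie between -1.31 and 1.95.

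Levels of the binding proteins were compared with each other per kb of exon. The 6 transcripts summed to 622 ± 23.8 CPM per kb (SD, n = 2) on stiff and 1346 ± 106 on soft gels for WT, and to 188 ± 13.6 on stiff and 325 ± 12.1 on soft gels for Cav1KO, and the groups did not overlap. In WT, Igfbp4 made up 59.5 ± 1.26% of the sum on stiff and 65.9 ± 3.33% on soft gels. Igfbp3 followed with 21.045 ± 1.24% and 15.04 ± 1.98%, then Igfbp7 with 13.7 ± 0.124% and 10.2 ± 0.945%. Igfbp2 (58.7 ± 4.42 CPM per kb) and Igfbp6 (60.2 ± 0.511 CPM per kb) were next in WT soft and did not differ beyond their spread, while in WT stiff Igfbp2 was above Igfbp6. With the longest transcript as length that tie ended, with 82.9 for Igfbp2 against 60.2 CPM per kb for Igfbp6.

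In Cav1KO the order was another. Igfbp2 and Igfbp7 were level on stiff gels, at 84.1 ± 7.32 and 79.5 ± 1.11 CPM per kb, and on soft gels Igfbp2 led with 165 ± 4.35 against 109.8 ± 5.94 CPM per kb. As shares, Igfbp2 made up 44.7 ± 0.674% on stiff and 50.8 ± 0.557% on soft gels, Igfbp7 42.3 ± 2.46% and 33.8 ± 0.567%, and Igfbp6 12.2 ± 1.79% and 14.5 ± 0.0626%. Igfbp4 fell to 0.763 ± 0.00319% and 0.744 ± 0.0580%. Igfbp3 and Igfbp5 were below it in both Cav1KO groups. With length taken from the longest transcript, the Igfbp2 shares were 53.1% and 59.1%, and Igfbp2 (118.9 CPM per kb) stood above Igfbp7 (80.1 CPM per kb) on stiff gels also.

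**Figure D4:**
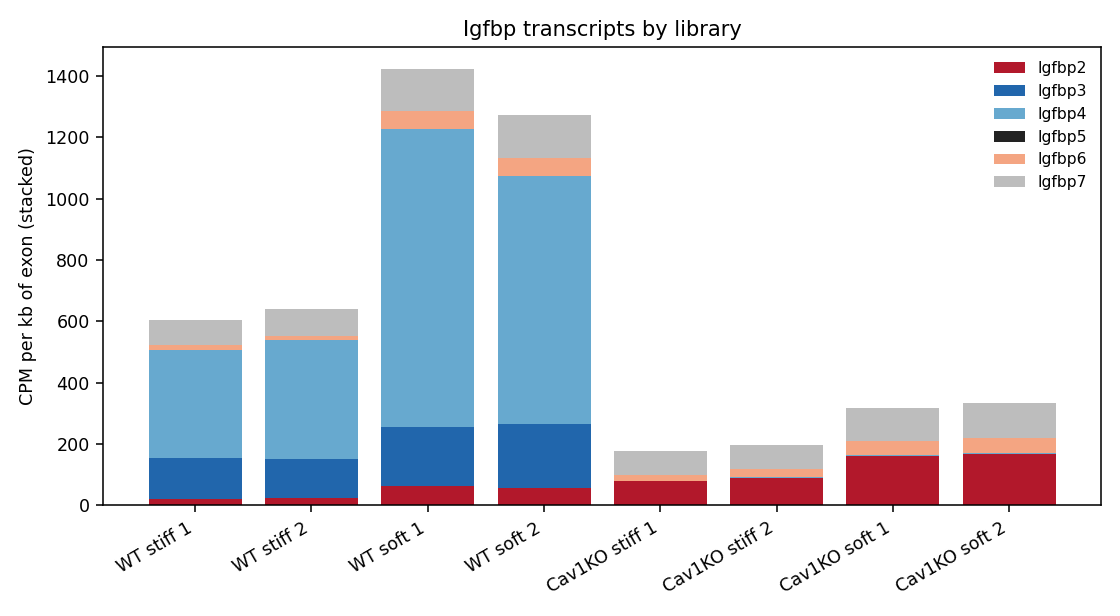
Transcript level of the 6 binding proteins in each library, in CPM per kb of exon, stacked, with each colour standing for one gene; the y axis starts at 0 and no error is drawn since each bar is 1 library. WT bars reach 605 to 1422 and are mostly Igfbp4 and Igfbp3, and Cav1KO bars reach 179 to 334 and are mostly Igfbp2 and Igfbp7.

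The other genes of the IGF pathway were followed with a list of 36 receptors, adaptors, binding-protein proteases and their inhibitors, Igf2 mRNA-binding proteins, enzymes of the mannose 6-phosphate route and kinases, of which 30 were listed. H19, Plagl1, Igfals, Igfbp1, Igfbpl1 and Pappa2 were not. On stiff gels 3 of the 30 were higher and 12 lower in WT (median -0.21), and 6 were higher and 13 lower in Cav1KO (median -0.20). The shares over all genes tested were 22.1% higher and 26.3% lower in WT and 27.9% and 28.2% in Cav1KO. In Cav1KO against WT, 11 were higher and 13 lower on stiff gels (median -0.04), and 14 were higher and 11 lower on soft gels (median 0.20), where the shares over all genes were 25% and 26.6%, and 24.1% and 29.9%. Pappa and Grb10 (both called lower) entered the test only through WT libraries, and Stc1 (called higher) only through Cav1KO libraries. Their genotype calls in these counts are therefore not independent of the filter.

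Igf1r, the signalling receptor, was highest in Cav1KO cells on soft gels, as was Igf2r. Igf1r stood at 44.8 and 42.4 CPM on stiff and 38.7 and 46.6 CPM on soft gels for WT, and at 44.3 and 31.2 CPM on stiff and 86.7 and 74.0 CPM on soft gels for Cav1KO. The Cav1KO soft libraries stood above the other 6. In Cav1KO it was lower on stiff gels by -1.08 ± 0.16 (limma adjusted p = 0.000666), and the difference between the stiffness differences was 1.12 ± 0.23 (limma adjusted p = 0.0295). Of the adaptors that dock on the receptor, Irs1 and Irs2 were lower on stiff gels in Cav1KO as well, Irs1 by -0.91 ± 0.16 (limma adjusted p = 0.00131) and Irs2 by -1.09 ± 0.17 (limma adjusted p = 0.000677). Shc1 was lower too (-0.49, limma adjusted p = 0.00267), and Grb10 (-0.17, limma adjusted p = 0.416) and Grb14 (-0.04, limma adjusted p = 0.809) missed the threshold. In WT, Irs1 was also lower on stiff gels (-0.44, limma adjusted p = 0.0460). Irs1 was higher in Cav1KO on both gels (0.82 on stiff and 1.29 on soft), whereas Irs2 was lower in Cav1KO on stiff gels (-0.83, limma adjusted p = 0.00328) and missed the threshold on soft gels (0.09, limma adjusted p = 0.679). For Irs2 the stiffness differences also differed between genotypes (0.91, limma adjusted p = 0.0460).

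Among the regulators of the binding proteins, the proteases Pappa and Htra1 were lower in Cav1KO, and the protease Adamts1 and the stanniocalcins, which inhibit PAPP-A, were higher. Pappa, which encodes the protease that cuts IGFBP4, stood at 6.08 and 4.85 CPM on stiff and 12.7 and 15.3 CPM on soft gels for WT, and at 0.493 to 0.836 CPM in the 4 Cav1KO libraries. It was lower in Cav1KO by -2.06 ± 0.16 on stiff gels (limma adjusted p = 1.55e-05) and by -3.09 ± 0.16 on soft gels (limma adjusted p = 1.31e-06). Htra1, which encodes a secreted serine protease, stood at 163 to 187 CPM in WT and 13.9 to 25.1 CPM in Cav1KO, with differences of -3.32 ± 0.11 (limma adjusted p = 1.03e-07) and -2.91 ± 0.11 (limma adjusted p = 2.03e-07). Stc1 rose from 2 to 9 reads per WT library (0.114 to 0.484 CPM) to 22.2 to 30.7 CPM in Cav1KO, by pooled reads 225 times the WT level on stiff gels (counting interval 96.2 to 695) and 66.7 times on soft gels (38.8 to 126). Stc2 was higher by 1.10 ± 0.13 on stiff gels (limma adjusted p = 0.000186) and by 0.46 ± 0.13 on soft gels (limma adjusted p = 0.0171). Adamts1, an extracellular metalloprotease, was lower on stiff gels in WT (-1.66 ± 0.27, limma adjusted p = 0.00123) and in Cav1KO (-1.20 ± 0.27, limma adjusted p = 0.00488). It was higher in Cav1KO than in WT on stiff gels (1.25 ± 0.27, limma adjusted p = 0.00458) and on soft gels (0.79 ± 0.27, limma adjusted p = 0.0343).

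The remaining pathway genes with a mean of at least 5 CPM that moved by at least 1 on the log2 scale did so between genotypes. Igf2bp3, an mRNA-binding protein named for Igf2 mRNA, was at 42.5 to 48.6 CPM in WT and 16.9 to 19.5 CPM in Cav1KO, lower by -1.34 on stiff and -1.21 on soft gels. Gnptab, which encodes subunits of the enzyme that makes the mannose 6-phosphate tag read by IGF2R, was at 23.6 to 28.9 CPM in WT and 43.8 to 58.9 CPM in Cav1KO, higher by 0.91 and 1.14. Pik3cb, a catalytic subunit of phosphoinositide kinase, was lower in Cav1KO by -1.07 and -1.11, and higher on stiff than on soft gels by 0.76 in WT and 0.80 in Cav1KO.

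**Figure D5:**
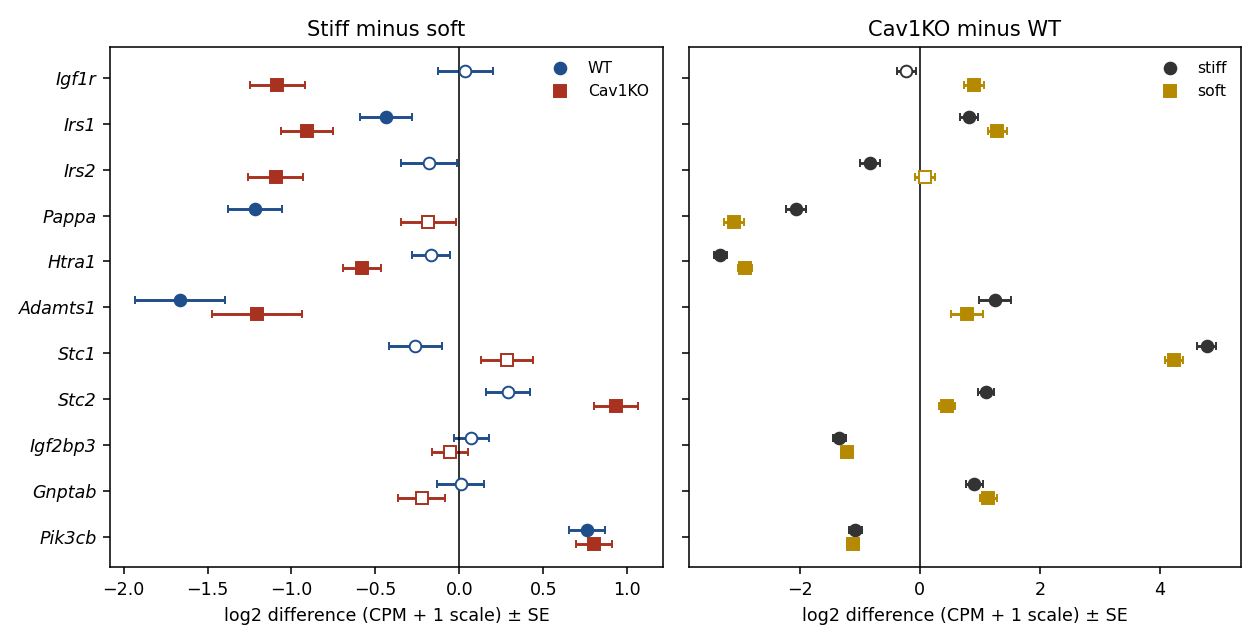
Differences on the log2(CPM + 1) scale for the 11 pathway genes with a mean of at least 5 CPM that passed the threshold in at least 1 comparison of groups with a size of at least 1; points are limma estimates, bars are SE, and the panels give the stiffness and the genotype differences. Stc1 lies furthest right, at 4.78 and 4.23 between genotypes, and Htra1 and Pappa furthest left, at -3.32 and -3.09.

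The genes whose levels followed each of the members most closely were ranked by Pearson's r of log2(CPM + 1) over the 8 libraries, among genes with a mean of at least 5 CPM. The 8 points fall into 4 groups that share their substrate or genotype, so r describes the pattern of group levels and has no test. For Igf2 the closest were Dab2 and Mbtps1 (both r = 0.999), and Dab2 ran from 26.4 CPM in the lowest WT library to 201 CPM in the highest Cav1KO library. For Igfbp3 they were Sohlh2 and Rbpsuh-rs3 (r = 0.9997 and 0.9995), and Sohlh2 stood at 32.1 to 46.5 CPM in WT and at or below 0.154 CPM in Cav1KO. For Igfbp4 they were Gnpda2 (r = 0.9996) and Pdlim4 (r = 0.999), for Igfbp2 Wdr6 and Nov (both r = 0.998), and for Igf2r Adamts9 (r = 0.991) and Alpk1 (r = 0.990). For Igfbp6 they were Atp6ap2 (r = 0.993) and Trpm4 (r = 0.991), for Igfbp7 Fam160a1 (r = 0.993) and Wdsub1 (r = 0.992), for Igf1 Serpinb6a (r = 0.996) and H2-T23 (r = 0.995), and for Igfbp5 Lama5 (r = 0.980) and C3 (r = 0.978).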

How the data were processed

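Poly(A) RNA from 8 samples of immortalized MEFs (2 per group, 500 ng of total RNA each) was sequenced from one end with a read length of 60 nt. The submitters' processing notes name CASAVA 1.8.2, cutadapt, RSEM 1.2.3 and the build GRCm38, and the filter that left 12528 genes is not given in the sources used here. The deposited values are a signal the authors made by dividing gene counts by TMM-scaled library sizes (TMM-normalized CPM). In every library 100% of them were whole multiples of 1 read within a tolerance of 0.01, so reads were recovered. TMM scaling assumes that most genes do not change, so values are relative to the rest of the RNA.

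Groups came from the sample titles. Genes had to reach 1 CPM in no fewer than 2 libraries (12494 genes). Their log2(CPM + 1) was fitted with limma 3.58.1 (R 4.3.3, mean-variance trend) over all 8 libraries, with contrasts for stiffness in each genotype, genotype on each gel and their difference, and Benjamini-Hochberg adjustment over all genes. All 9 members passed the filter, but Igf1 and Igfbp3 did so only through WT libraries and Igfbp5 only through Cav1KO soft. Reads were also tested with edgeR 4.0.16 (quasi-likelihood), which called 2715 genes higher and 3219 lower on stiff gels in WT, and with DESeq2 1.42.0. Counting intervals and floors are exact, at 95%, and cover counting error only. Coordinates and exon lengths are from GENCODE M21 (GRCm38), to which 12451 of the listed genes matched, and promoter windows are from RefSeq (GRCm38.p6). Named pathway genes passed the threshold in a comparison of groups with a difference of at least 1 (log2) and a mean of at least 5 CPM. The members and gene lists were chosen with earlier results of these data known. Pseudocount, filter, scaling, trend, replicate block, tool, transcript length and single libraries were varied.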

Additional observations from a re-analysis of the deposited data

Results flagged for a closer look

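In 5 of the 9 genes the stiffness difference in WT differed from that in Cav1KO by the limma test of the difference itself, given here as WT minus Cav1KO on the log2(CPM + 1) scale: Igf2 (1.23), Igf2r (1.16), Igfbp5 (1.76), Igfbp3 (-0.76) and Igfbp6 (-1.01). Among all genes tested 4.47% were called positive and 6% negative. For Igf2, Igfbp3 and Igfbp5, 1 genotype had at most 21 reads per library in both of its groups, or at most 4 in 3 groups, and edgeR on the reads did not call them. For Igf2r and Igfbp6 every group had at least 276 reads per library and edgeR called both. Their limma calls were nevertheless sensitive to single libraries, as given above. Over the omissions the difference lay between 0.94 and 1.38 for Igf2r and between -1.23 and -0.80 for Igfbp6. Groups of 2 libraries are too small to test for a library that stands apart.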

How the results depend on the processing

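Of 45 results (9 genes in 5 comparisons), 32 kept their side of the threshold under each alternative that gave a value (up to 18) other than a 2-fold minimum, and 28 of these also kept their direction. The other 4 missed the threshold throughout, so they were never called, and changed sign in at least 1 alternative. Igf1 and Igfbp5 had no value with a minimum of 5 CPM. With the 2-fold minimum (an absolute log2 difference of at least 1), 3 genes were lower on stiff gels in WT and 4 in Cav1KO, and 1 had a negative difference between the stiffness differences. That last comparison was the least stable. The genes called positive in it fell to 1 with a pseudocount of 0.1, with edgeR and with DESeq2 (which gave no adjusted p for Igf1 and Igfbp5), and those called negative to 1 with a pseudocount of 0.1, without a trend and with edgeR. Leaving out single libraries gave 1 to 3 positive and 0 to 4 negative calls, with 1 residual degree of freedom fewer. For Igf2 it turned to -0.10 with edgeR and -0.12 with DESeq2, whose ratios need no pseudocount. Libraries with the same number did not deviate together in a uniform way. Correlations between groups ran from -0.37 (WT stiff with WT soft) to 0.42 (WT stiff with Cav1KO stiff). The numbers were therefore not taken to pair libraries over all groups. Whether the stiff libraries of the same number shared a batch was not tested. The replicate block left every count as it was except genes lower in Cav1KO on soft gels, which became 5 with Igfbp6. With the longest transcript, Igfbp2 made up 53.1% of the binding-protein sum in Cav1KO stiff and 59.1% in Cav1KO soft. Depth limits Igf1 and Igfbp3 in Cav1KO and Igf2 and Igfbp5 in WT.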
